A study of Mus musculus with 19 samples.

Results

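The 10 genes described here were measured across sorted sensory neurons of the mouse: the neuronal intermediate filament genes Nefh, Nefm, Nefl, Prph and Ina, and 5 genes used as markers of large-diameter neurons, Pvalb, Spp1, Ldhb, Cadps2 and Calb1. They were taken by symbol, and all 10 of 10 were found among the 18666 genes of the expression table. RNA sequencing was done on dorsal root ganglion neurons of male C57BL/6 mice of 2 months in which MrgprA3+ neurons, the itch-sensing cells that express the Mas-related receptor Mrgpra3, carry a genetic GFP label. The allele or promoter that drives the label is not stated in these sources. The 4 groups were MrgprA3+ neurons (sorted by GFP) and MrgprA3- neurons (sorted by a gate set to a shape similar to that of the GFP+ cells), each from control mice and from mice with allergic contact dermatitis (ACD). For ACD, 25 ul of 0.5% squaric acid dibutylester (SADBE) in acetone was put on the shaved abdomen on days 1 to 3 and on the lower back on days 8 to 12. Control mice received acetone alone. On day 13 the 16 ganglia from T11 to L6 were taken from each mouse, with 5 mice per treatment, and every mouse gave both sorted populations. The files hold 5 libraries for 3 of the groups and 4 for the labelled cells of dermatitis mice, with none numbered replicate 3 in that last group. Because the gate for MrgprA3- cells followed the shape of the labelled cells, these libraries stand for unlabelled neurons of that gate and not for all other neurons of the ganglion.

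Intermediate filaments are the ropes of the axon's cytoskeleton. The light, medium and heavy neurofilament chains (Nefl, Nefm and Nefh) assemble together and fill the calibre of large myelinated axons, with Nefh the chain classically used to mark myelinated sensory neurons. Peripherin (Prph) marks small unmyelinated neurons in the ganglion, and alpha-internexin (Ina) joins the triplet. Pvalb and Calb1 encode the calcium-binding proteins parvalbumin, a marker of proprioceptors, and calbindin. Spp1 encodes osteopontin, a secreted phosphoprotein found in large sensory neurons and also made by macrophages and bone cells. Ldhb encodes the heart-type subunit of lactate dehydrogenase, and Cadps2 a protein that primes dense core vesicles for release.

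Values are FPKM (fragments counted per length of transcript and per depth of the library), which can be set side by side between genes because they are divided by length. The receptor that defines the sort separated the populations: Mrgpra3 averaged 1131 FPKM ± 197 (SD, n = 5) in MrgprA3+ and 20.2 ± 4.12 (n = 5) in MrgprA3- libraries of control mice, and 940 ± 101 (n = 4) against 19.96 ± 3.97 (n = 5) in ACD mice. Depth, estimated from the steps between low FPKM values, was 10.25 to 21 M fragments per library and is approximate. MrgprA3+ libraries had 13448 to 14360 genes above 0 and MrgprA3- libraries 15534 to 16163. Markers of other cells also differed with the sort. The 12 satellite glia markers summed to 462 to 598 FPKM in MrgprA3+ and 771 to 935 in MrgprA3- control libraries, and to 499 to 707 and 775 to 906 in ACD mice. Most of the sum came from Apoe (235 against 369 FPKM in control mice) and Hmgcs1 (203 against 359). Of the 10 satellite glia markers tested, 8 were lower in MrgprA3+ neurons of control mice and none higher, against 18.4% and 8.64% of all genes tested. Of the 8, 3 passed the filter on low values (at least 1 FPKM in at least 4 libraries) only through MrgprA3- libraries. The defining marker Fabp7 stood at 32.1 ± 7.87 against 44.4 ± 3.93 FPKM (SD, n = 5 each) and Kcnj10 at 1.05 ± 0.788 against 1.14 ± 0.357. The 10 Schwann cell markers summed to 1247 to 1538 against 1074 to 1360 FPKM in control mice and were dominated by Pmp22, while Mbp stood at 11.1 ± 5.36 against 33.3 ± 6.45. The 8 endothelial markers summed to 39.9 to 83.8 against 23.3 to 32.4 FPKM in control mice, a sum made almost wholly by Esam (38.8 against 6.77 FPKM) and Egfl7 (28.3 against 18.2). The defining endothelial markers Pecam1 (0.0200 against 0.928 FPKM), Kdr (0.00400 against 0.294) and Cdh5 (0 against 0.0260) were low in both populations and not tested. The 8 fibroblast and mural markers summed to 47.5 to 92.0 against 28.5 to 48.0 FPKM, where Rgs5 (56.1 against 12.3) was higher in MrgprA3+ neurons and Dcn (4.34 against 19.4) and Pdgfrb (3.15 against 6.62) were lower. Of 12 markers shared by neurons 3 were higher, 3 lower and 6 did not pass in control mice, and under quantile normalization none was higher and 3 were lower. The part of these cells in the results below was not tested.

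In control mice, 7 of the 10 genes were lower in MrgprA3+ than in MrgprA3- neurons, 1 was higher and 2 did not pass the test. Lower were all 5 large-neuron markers and the filament genes Nefh and Nefm, peripherin was higher, and Nefl and Ina did not pass. Among all 11996 genes tested, 18.4% were lower and 8.64% higher in the same comparison. In ACD mice 5 of the 10 were lower (Nefh, Nefm, Pvalb, Spp1 and Ldhb), 2 were higher (Prph and Ina) and 3 did not pass (Nefl, Cadps2 and Calb1), against 15.2% of all genes lower and 6.84% higher. The median difference of the 10 genes, MrgprA3+ minus MrgprA3- on the log2(FPKM + 1) scale, was -1.18 in control and -0.95 in ACD mice, while that of all genes tested was -0.14 and -0.12. Differences here are on that scale, which understates the change of low genes, and were tested with limma across all genes, two-sided, with a Benjamini-Hochberg adjusted p under 0.05 as the threshold. Pvalb and Calb1 passed the filter on low values only through MrgprA3- libraries, so their direction was largely set by the filter. Both are among the 7 lower genes of control mice, Pvalb is among the 5 of ACD mice, and both enter the medians. The spread differs between the groups, and with group weights 7 of the 10 were lower in control and 4 in ACD mice, while fits of the compared groups alone gave 6 and 5. In these bulk libraries fewer cells of a type and less RNA per cell cannot be told apart.

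**Figure D1:**
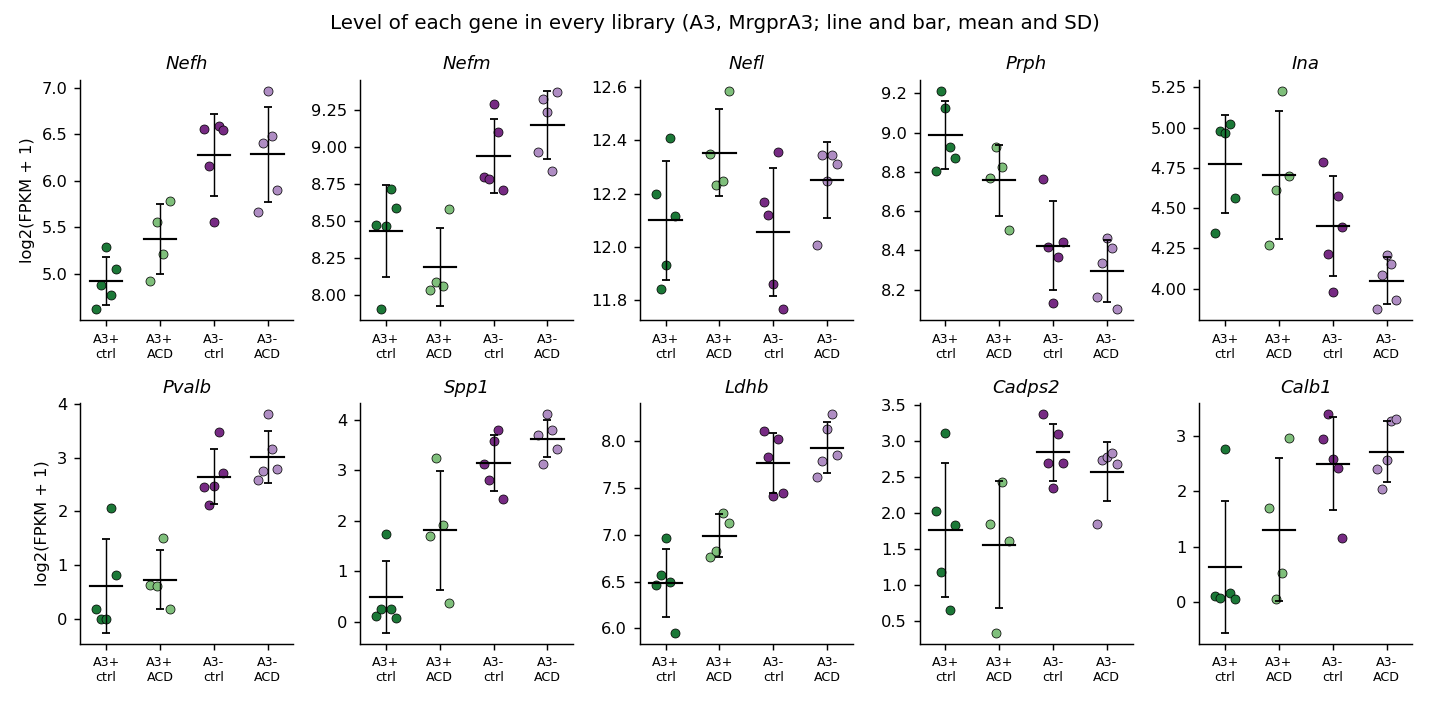
Level of each of the 10 genes as log2(FPKM + 1), with 1 point per library in the 4 groups (A3+, MrgprA3+; A3-, MrgprA3-), a line at the mean and a bar of 1 SD; the vertical scales differ between genes and do not start at 0. Nefh, Pvalb, Spp1 and Ldhb lie lower in the MrgprA3+ groups, Prph lies higher, and the Nefl groups overlap, with all libraries between 3485 and 6144 FPKM.

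RefSeq gives promoter sequences (assembly GRCm38.p6) for 6 of the 10 genes, Prph, Ina, Spp1, Ldhb, Pvalb and Cadps2. The 250 bases before the start are shown for both genes that were higher in MrgprA3+ neurons of ACD mice and for 2 that were lower in both treatments, so that the regulatory DNA of genes with opposite differences can be read side by side. Not shown are Pvalb, which was also lower in both treatments, and Cadps2, which was lower in control mice only. Capitals mark 3 motifs or their reverse complements, since both strands were searched. The first is TATAAA, the core of a TATA box. The second is GGGCGG, the core of a GC box bound by Sp1-type factors. The last is TGTGGT, the core bound by Runx factors. None of these motifs overlaps another in the 4 windows.
Prph (chr15:99054924-99055173, + strand): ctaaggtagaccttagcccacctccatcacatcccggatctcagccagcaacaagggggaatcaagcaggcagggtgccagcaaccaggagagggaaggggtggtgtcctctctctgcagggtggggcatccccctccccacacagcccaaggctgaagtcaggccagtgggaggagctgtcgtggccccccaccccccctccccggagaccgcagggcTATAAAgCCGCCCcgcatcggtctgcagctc
Ina (chr19:47014431-47014680, + strand): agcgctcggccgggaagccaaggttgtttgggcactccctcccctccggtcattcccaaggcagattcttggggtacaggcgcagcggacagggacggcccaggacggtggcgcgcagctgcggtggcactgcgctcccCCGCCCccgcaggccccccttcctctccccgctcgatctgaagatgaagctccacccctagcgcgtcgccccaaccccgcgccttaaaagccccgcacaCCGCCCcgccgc
Spp1 (chr5:104434861-104435110, + strand, the first of 2 listed starts): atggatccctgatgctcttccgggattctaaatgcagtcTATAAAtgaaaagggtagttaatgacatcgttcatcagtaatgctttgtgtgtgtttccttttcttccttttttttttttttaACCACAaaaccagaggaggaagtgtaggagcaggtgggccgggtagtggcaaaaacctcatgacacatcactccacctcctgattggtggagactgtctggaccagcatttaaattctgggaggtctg
Ldhb (chr6:142507958-142508207, - strand): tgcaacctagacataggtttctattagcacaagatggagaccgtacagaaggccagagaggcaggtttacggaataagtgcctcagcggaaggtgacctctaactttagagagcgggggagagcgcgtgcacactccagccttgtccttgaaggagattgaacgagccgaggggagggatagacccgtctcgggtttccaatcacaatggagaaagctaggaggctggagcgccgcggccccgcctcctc
Prph holds TATAAA with its first base at position -31 from the start and 1 GGGCGG, Ina holds 2 GGGCGG and no TATAAA, and Spp1 holds TATAAA at position -211 and 1 TGTGGT. The Ldhb window holds none of the 3. The window before the second listed start of Spp1, not shown, also holds none of them, with 35.6% GC content. Over all 32851 promoters of the same length in that table, 12.37% hold TATAAA, 32.74% GGGCGG and 14.05% TGTGGT on either strand. GC content was 65.2% for Prph, 70.8% for Ina, 43.6% for Spp1 and 56.4% for Ldhb, against a median of 52.4% over all promoters. For the genes not shown, Cadps2 holds 3 copies of the GC box core, with 78% GC content. Pvalb holds none of the 3 motifs before either of its 2 listed starts, with 58.4% and 71.6% GC content. The GC box core and high GC content were thus not confined to the higher genes.

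The filament genes covered a wide range of levels. Nefl (gene ID 18039) averaged 4430 FPKM ± 695 (SD, n = 5) in MrgprA3+ and 4302 ± 708 (n = 5) in MrgprA3- neurons of control mice, and 5256 ± 619 (n = 4) and 4891 ± 454 (n = 5) in ACD mice. By mean FPKM it was number 7 of all genes in MrgprA3+ control libraries and number 4 in each of the other 3 groups. The single libraries ran from 3675 to 5438 and from 3485 to 5241 in control mice and from 4806 to 6144 and from 4115 to 5195 in ACD mice, and all 4 ranges overlap. The difference between populations was 0.04 (SE 0.11, adjusted p = 0.804 by limma; 95% interval -0.18 to 0.27) in control and 0.10 (SE 0.11, adjusted p = 0.565; -0.13 to 0.34) in ACD mice. Its sign depends on how libraries are scaled to each other. Quantile normalization gave -0.22 (adjusted p = 0.0276) in control mice and -0.12 in ACD mice, and median-ratio scaling 0.16 and 0.20.

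Nefh (gene ID 380684), the heavy chain, was the filament gene with the widest gap between populations in control mice. In control mice the MrgprA3+ libraries had 23.6, 26.4, 28.4, 32.3 and 37.99 FPKM and the MrgprA3- libraries 46.05, 70.5, 92.5, 92.8 and 95.1. The groups do not overlap, with 1 MrgprA3- library (replicate 3) well below its other 4. The means of 29.7 ± 5.59 and 79.4 ± 21.1 FPKM (SD, n = 5 each) gave a difference of -1.36 (SE 0.23, limma adjusted p = 8.04e-05), or 2.67 times more in MrgprA3- neurons. The exact two-sided permutation p was 0.00794, the smallest possible when libraries are shuffled without pairing by mouse. In ACD mice the MrgprA3+ libraries had 29.4, 36.1, 46.2 and 54.0 FPKM and the MrgprA3- libraries 49.7, 58.6, 83.6, 88.6 and 124. Here the highest MrgprA3+ library (replicate 5) exceeded the lowest MrgprA3- library (replicate 1). The difference was -0.91 (SE 0.24, adjusted p = 0.00759 by limma; exact permutation p = 0.0317), and with a weight for each group's own spread it missed the threshold (adjusted p = 0.0945). From lowest to highest mean the groups stood in the order control MrgprA3+, ACD MrgprA3+, control MrgprA3- and ACD MrgprA3-. Each neighbouring pair in that order overlaps, ACD MrgprA3+ and control MrgprA3- through replicate 3 of the latter at 46.05.

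Nefm (gene ID 18040), the medium chain, averaged 350 ± 68.2 FPKM in MrgprA3+ and 496 ± 89.4 in MrgprA3- neurons of control mice (SD, n = 5 each). The libraries ran from 238 to 420 and from 418 to 628, so the groups met at a single pair of libraries. The difference was -0.51 (SE 0.15, limma adjusted p = 0.0121; exact permutation p = 0.0159), and it missed the threshold under median-ratio scaling (-0.39, adjusted p = 0.0652). In ACD mice the MrgprA3+ libraries had 260.45, 266, 271 and 382 FPKM and the MrgprA3- libraries 458, 500.2, 605, 642 and 661. These groups do not overlap, and the difference was -0.96 (SE 0.16, limma adjusted p = 8.20e-05). Across all genes 12% were lower without overlap in control and 14.6% in ACD mice. The Nefm value itself is uncertain. In the RefSeq table of GRCm38.p6 the long non-coding RNA gene A230070E04Rik overlaps Nefm, and the deposited table lists it separately at nearly the same level, with Nefm over A230070E04Rik between 0.865 and 1.16 in all 19 libraries (mean 1.02). Whether reads were counted by strand is not given in the sources used here, so reads of the pair cannot be told apart. By gene span Nefh also overlaps Ap1b1 (mean 46.5 FPKM over all libraries) and Ina overlaps Nt5c2 (9.07 FPKM). Whether shared reads enter the Nefh and Ina values was not tested.

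Peripherin (Prph, gene ID 19132) went the other way. The MrgprA3+ libraries of control mice had 446.0, 467, 485, 558 and 593 FPKM and the MrgprA3- libraries 279, 329, 341, 347 and 433. The groups do not overlap, with 1 MrgprA3- library (replicate 1) close to the lowest MrgprA3+ library. The means were 509.6 ± 62.7 and 346 ± 55.6 (SD, n = 5 each), a difference of 0.56 (SE 0.11, limma adjusted p = 4.83e-04; exact permutation p = 0.00794). In ACD mice the MrgprA3+ libraries had 362, 436, 453 and 485 FPKM and the MrgprA3- libraries 273, 286, 322, 339 and 352. They were again apart, with means of 434 ± 52.3 (n = 4) and 315 ± 33.9 (n = 5) and a difference of 0.46 (SE 0.12, adjusted p = 0.00607 by limma). Among all genes 5.75% were higher without overlap in control and 6.21% in ACD mice. The Prph call held under each of the 28 alternatives run for either treatment.

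Alpha-internexin (Ina, gene ID 226180) was a low filament gene, at 26.8 ± 5.51 FPKM in MrgprA3+ and 20.3 ± 4.57 in MrgprA3- neurons of control mice (SD, n = 5 each), where the ranges of 19.3 to 31.5 and 14.8 to 26.6 overlap. The difference of 0.39 (SE 0.19) did not pass the test (adjusted p = 0.130 by limma; exact permutation p = 0.0952). In ACD mice the MrgprA3+ libraries had 18.4, 23.5, 25.0 and 36.5 FPKM and the MrgprA3- libraries 13.7, 14.2, 16.0, 16.8 and 17.5. The groups were apart by less than 1 FPKM, and the difference was 0.66 (SE 0.20, limma adjusted p = 0.0186; exact permutation p = 0.00794). Without ACD MrgprA3+ replicate 4, the highest library, it was 0.48 and missed the threshold (adjusted p = 0.0906).

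Ratios between members of 1 library do not depend on a scaling factor between libraries. Nefh over Prph, the heavy chain of large fibres over the filament of small ones, averaged 0.0585 ± 0.00956 in MrgprA3+ and 0.228 ± 0.0497 in MrgprA3- neurons of control mice (SD, n = 5 each), and 0.0979 ± 0.0360 (n = 4) and 0.252 ± 0.0668 (n = 5) in ACD mice. The highest MrgprA3+ value was 0.0692 in control and 0.149 in ACD mice and the lowest MrgprA3- value 0.165 and 0.174, so the populations were apart in both treatments. Within the triplet, Nefl made up 92.1% ± 0.934 of the summed FPKM of Nefl, Nefm and Nefh in MrgprA3+ and 88.0% ± 2.14 in MrgprA3- neurons of control mice, and 94.0% ± 0.575 and 88.2% ± 1.35 in ACD mice. Nefm made up 7.26% ± 0.853 and 10.3% ± 2.33 in control and 5.24% ± 0.445 and 10.4% ± 1.35 in ACD mice, and Nefh 0.637% ± 0.183 and 1.64% ± 0.469, then 0.739% ± 0.159 and 1.45% ± 0.486. The populations were apart in both treatments for each of these 3 shares. Within MrgprA3+ neurons the Nefm share ran from 6.05% to 8.21% in control and from 4.73% to 5.81% in ACD mice and did not overlap, which is given as a description with no test; within MrgprA3- neurons it overlapped. Prph over Ina, by contrast, was 19.4 ± 2.84 and 17.3 ± 2.02 in control and 17.8 ± 5.29 and 20.1 ± 0.599 in ACD mice, and all 4 ranges overlap.

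**Figure D2:**
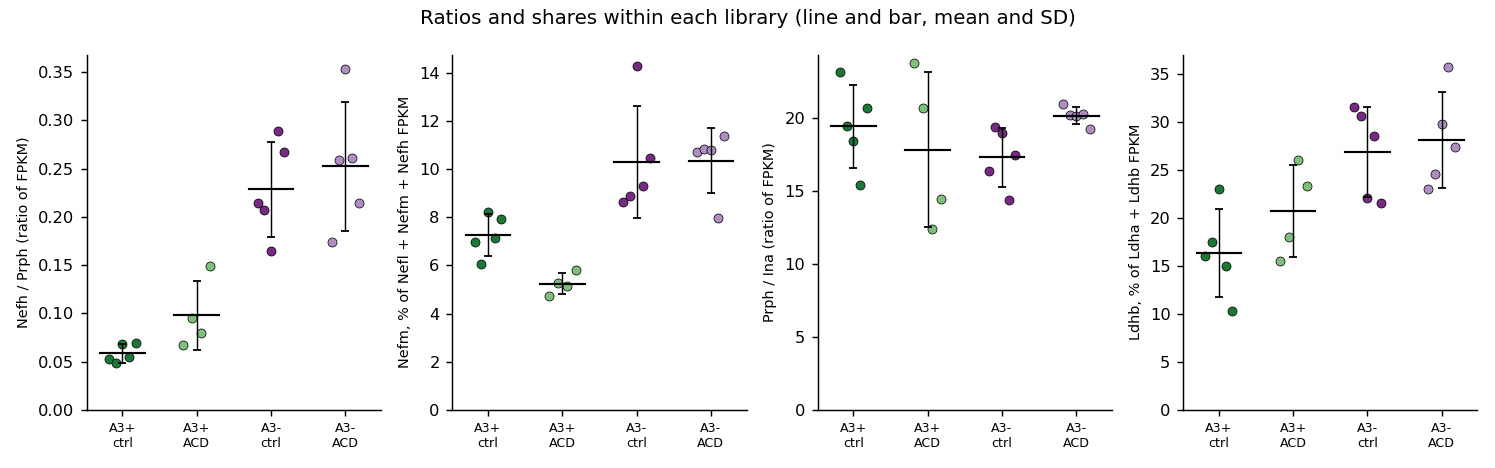
Ratios and shares within each library, 1 point per library in the 4 groups, with a line at the mean and a bar of 1 SD; the axes start at 0 and show Nefh over Prph, the percent of triplet FPKM from Nefm, Prph over Ina, and the percent of Ldha plus Ldhb FPKM from Ldhb. Nefh over Prph is below 0.15 in every MrgprA3+ library and above 0.16 in every MrgprA3- library.

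Of the large-neuron markers, Ldhb (gene ID 16832) had the highest level. In control mice the MrgprA3+ libraries had 60.9, 86.98, 88.9, 93.8 and 124 FPKM and the MrgprA3- libraries 169, 173, 226, 259 and 275. The groups are well apart, with means of 90.9 ± 22.5 and 220.5 ± 48.1 (SD, n = 5 each), a ratio of 2.43 and a difference of -1.28 (SE 0.17, limma adjusted p = 4.38e-06). Among ACD mice the libraries had 108, 113, 139 and 149.6 FPKM and 195, 219, 229, 278 and 311. They too are apart, at 127 ± 20.3 (n = 4) against 246 ± 47.0 (n = 5), with a difference of -0.94 (SE 0.18, adjusted p = 4.58e-04 by limma). The muscle-type subunit Ldha was also lower in MrgprA3+ neurons (469 ± 47.8 against 596 ± 51.8 FPKM in control mice, difference -0.35, limma adjusted p = 0.00658). Ldhb gave 16.4% ± 4.61 of the summed FPKM of both subunits in MrgprA3+ and 26.9% ± 4.73 in MrgprA3- neurons of control mice, and 20.7% ± 4.82 and 28.1% ± 5.02 in ACD mice, where the ranges of both treatments overlap between populations. Of the 7 tested genes of lactate and pyruvate handling other than Ldhb, 3 were lower and 4 did not pass in control mice, where 18.4% of all genes tested were lower. The other 2 lower genes were the monocarboxylate transporters Slc16a7 (-1.40, adjusted p = 0.00204 by limma) and Slc16a3 (-0.92, adjusted p = 0.0125), both low, at 0.444 against 2.70 FPKM and 0.0320 against 0.968. Slc16a3 passed the filter on low values only through MrgprA3- libraries, so its direction was largely set by the filter. In ACD mice only Ldha of the 7 passed, and under median-ratio scaling none did.

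Spp1 (gene ID 20750), coding for osteopontin, showed the widest population gap of the 10 genes in control mice. MrgprA3+ libraries had 0.05, 0.09, 0.19, 0.20 and 2.35 FPKM and MrgprA3- libraries 4.37, 6.02, 7.68, 10.9 and 12.9. The transcript was near 0 in 4 of the 5 MrgprA3+ libraries, and the highest of them (replicate 3) was still below each MrgprA3- library. The difference was -2.65 (SE 0.40, limma adjusted p = 2.97e-05; exact permutation p = 0.00794), and the means were 0.576 ± 0.994 and 8.37 ± 3.49 (SD, n = 5 each). For ACD mice the MrgprA3+ libraries had 0.30, 2.26, 2.80 and 8.46 FPKM and the MrgprA3- libraries 7.77, 9.64, 11.95, 12.8 and 16.2. The MrgprA3+ library at 8.46 (replicate 2) lies inside the MrgprA3- range, and the difference was -1.81 (SE 0.43, limma adjusted p = 0.00355; exact permutation p = 0.0159). Macrophage markers moved with the sort as well. The 10 of them summed to 0.18 to 7.31 FPKM in MrgprA3+ and 4.59 to 15.05 in MrgprA3- libraries of control mice, and to 0.59 to 1.02 and 4.36 to 29.8 in ACD mice. Of the 10 only Lyz2, Cd74 and C1qb were tested. These 3 passed the filter on low values through the MrgprA3- libraries, where they are high, so that their lower level in MrgprA3+ neurons was largely set by the filter, and none of the 3 passed the test in control mice under quantile normalization. The defining markers Cd68, Aif1 and Csf1r averaged at most 1.01 FPKM in any group and were not tested, with Cd68 at 1.01 in MrgprA3+ and 0.164 in MrgprA3- neurons of control mice. Among the bone and cartilage markers the summed level was at most 2.68 FPKM and none was tested. Of the genes for osteopontin receptors, 2 were tested. Cd44 was lower in MrgprA3+ neurons (132 ± 29.4 against 174 ± 21.5 FPKM in control mice, difference -0.41, limma adjusted p = 0.0118; not past the threshold under median-ratio scaling), and Itgb1 differed by 0.05 (adjusted p = 0.866). The part of macrophages in the Spp1 result was not tested.

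Pvalb (gene ID 19293), the parvalbumin gene, was low everywhere. MrgprA3+ libraries of control mice had 0, 0, 0.14, 0.77 and 3.16 FPKM and MrgprA3- libraries 3.32, 4.47, 4.52, 5.59 and 10.2. The groups are apart, but only because the highest MrgprA3+ library (replicate 4) falls just under the lowest MrgprA3- library. The means were 0.814 ± 1.35 and 5.61 ± 2.67 (SD, n = 5 each), with a difference of -2.03 (SE 0.36, limma adjusted p = 1.91e-04). In ACD animals the values were 0.14, 0.53, 0.54 and 1.82 FPKM against 4.96, 5.70, 5.90, 7.90 and 12.97. These groups are well apart, and the difference was -2.28 (SE 0.39, adjusted p = 1.40e-04 by limma). At the estimated depth the gene rested on about 0 to 43.2 fragments in a MrgprA3+ control library and 47.6 to 175 in a MrgprA3- one, which limits the precision of a single low value. Pvalb reached 1 FPKM in 2 of 9 MrgprA3+ and 10 of 10 MrgprA3- libraries and Calb1 in 3 of 9 and 10 of 10, so both passed the filter on low values (at least 1 FPKM in at least 4 libraries) through the MrgprA3- libraries.

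Calb1 (gene ID 12307) split the MrgprA3+ libraries. Like Pvalb, it passed the filter on low values only through the MrgprA3- libraries, so its direction was largely set by the filter. In control mice it stood at 0.05, 0.06, 0.09, 0.12 and 5.78 FPKM in MrgprA3+ and at 1.23, 4.37, 4.97, 6.68 and 9.44 in MrgprA3- neurons. A single MrgprA3+ library (replicate 3) reached the MrgprA3- range. With it the difference was -1.86 (SE 0.53, limma adjusted p = 0.0114; exact permutation p = 0.0317) and without it -2.39 (adjusted p = 6.27e-04). In the ACD groups the MrgprA3+ libraries had 0.05, 0.44, 2.24 and 6.74 FPKM and the MrgprA3- libraries 3.11, 4.28, 4.94, 8.64 and 8.82. Replicate 5 at 6.74 lies inside the MrgprA3- range, and the difference of -1.40 (SE 0.56) did not pass (adjusted p = 0.0768 by limma; 95% interval -2.57 to -0.24). It passed without ACD MrgprA3+ replicate 5 (-1.95, adjusted p = 0.0130), without control MrgprA3+ replicate 3, which enters through the shared spread (-1.40, adjusted p = 0.0334), and with the replicate number as a block (-1.44, adjusted p = 0.0471). The control library that was high in Calb1 was also the highest of its group for Spp1, Cadps2, Nefh and Ldhb. Its satellite glia sum of 598 FPKM, from a list whose sum is mostly Apoe and Hmgcs1, was the highest of its group. Its fibroblast and mural sum of 92.0 FPKM (at most 68.0 in the other 4) was the highest too. Its bone and cartilage sum of 1.54 FPKM, all from the single gene Ibsp, was also the highest (at most 0.08 in the other 4). Its macrophage sum was 0.94 FPKM, in a group that ran from 0.18 to 7.31, and the part of these cells in its values was not tested.

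Cadps2 (gene ID 320405) averaged 3.03 ± 2.76 FPKM in MrgprA3+ and 6.40 ± 2.07 in MrgprA3- neurons of control mice (SD, n = 5 each). The libraries had 0.57, 1.27, 2.58, 3.09 and 7.62 against 4.07, 5.48, 5.51, 7.56 and 9.36, and overlap through replicate 3 of the MrgprA3+ group. The difference was -1.08 (SE 0.39, adjusted p = 0.0415 by limma; exact permutation p = 0.0556). This call was the least firm of the 10, since 13 of 28 alternatives lost it, with adjusted p from 0.00569 to 0.128 over all of them. Among them were the fit with the replicate number as a block (adjusted p = 0.0535) and the fits without MrgprA3+ replicate 2, 4 or 5 (differences -0.93, -0.80 and -1.10) or without MrgprA3- replicate 1, 2, 4 or 5 (-0.95, -1.11, -1.02 and -1.12). Among ACD mice the means were 2.33 ± 1.70 (n = 4) and 5.14 ± 1.44 (n = 5) and the difference -1.02 (SE 0.41) did not pass (adjusted p = 0.0792; 95% interval -1.87 to -0.17). It passed without ACD MrgprA3+ replicate 4 (-1.31, adjusted p = 0.0344) and, through the shared spread, without control MrgprA3+ replicate 3 (adjusted p = 0.0464). Its paralog Cadps was the higher of the pair and differed by -0.02 in control mice (55.0 ± 15.2 against 54.9 ± 10.4 FPKM, adjusted p = 0.934). Cadps2 gave 5.02% ± 3.93 of the summed FPKM of both in MrgprA3+ and 10.5% ± 3.09 in MrgprA3- neurons of control mice, with overlapping ranges.

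**Figure D3:**
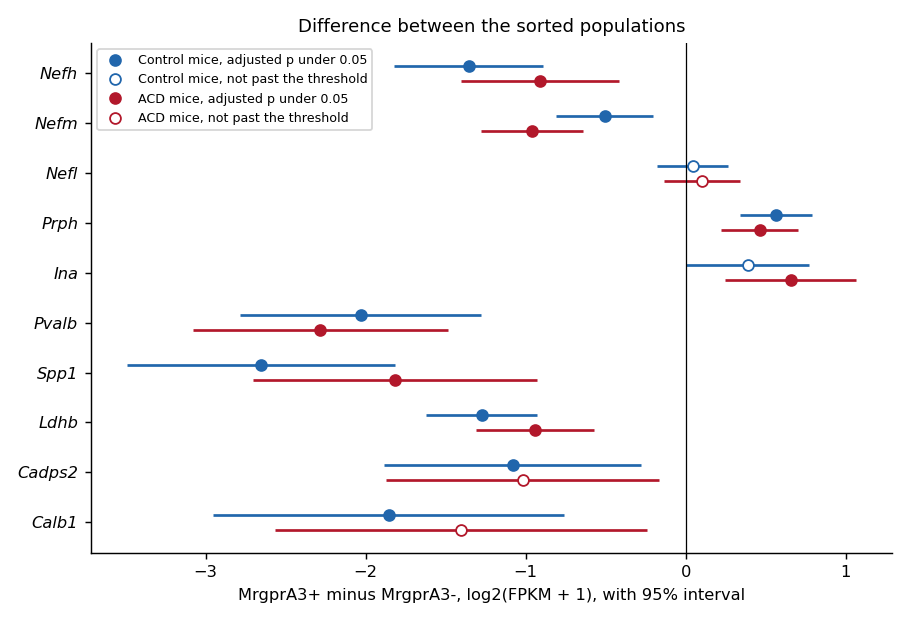
Difference MrgprA3+ minus MrgprA3- of each gene on the log2(FPKM + 1) scale with its 95% interval, in control mice (blue) and ACD mice (red); filled points passed the test across all genes and open points did not. Prph lies above 0 in both treatments, Nefl close to 0, and Spp1 at -2.65 and Pvalb at -2.28 are the lowest points in control and ACD mice. Pvalb and Calb1 passed the filter on low values only through MrgprA3- libraries, so their direction was largely set by the filter.

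Genes of related function were read from lists chosen with earlier results of these data known, so their counts are descriptions. Of 30 other markers of large or myelinated sensory neurons 24 were tested. In control mice 20 were lower in MrgprA3+ neurons, 2 higher and 2 did not pass, against 18.4% lower and 8.64% higher among all genes tested. In ACD mice 17 were lower and 2 higher, against 15.2% and 6.84%. The median difference of the list was -1.25 in control and -0.95 in ACD mice. The filter shaped these counts and medians, since 10 of the 24 reached 1 FPKM in 4 libraries only among the MrgprA3- ones (among them Vsnl1, Cacna1h, Colq and Hapln4), and all 10 are among the lower genes of both treatments. The largest were the transcription factor gene Pou4f3 (0.92 ± 0.846 against 29.4 ± 6.54 FPKM, -4.06), the adhesion gene Cntn1 (-3.85), the sodium pump regulator Fxyd7 (-3.84) and the potassium channel gene Kcna1 (-3.30). The 2 that were higher, Etv1 (2.23) and Gfra1 (2.12), chosen for naming because they go against the rest, encode a transcription factor and a receptor for glial-derived neurotrophic factor. Because Etv1 and Gfra1 are abundant, the summed FPKM of the list was alike in both populations, at 434 ± 102 and 432 ± 36.0 in control mice.

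Beyond the 5 neuronal chains, intermediate filament genes showed little difference. Of 13 listed 6 were tested, and none passed in control mice by limma, adjusted or at an unadjusted p under 0.05, with differences from -0.27 to 0.26. In ACD mice vimentin (Vim), the filament of glia, fibroblasts and immature neurons, was lower (67.0 against 109 FPKM, -0.68, limma adjusted p = 0.0472), a call that median-ratio scaling ended. Gfap, Des, Krt8 and Krt18 averaged 0 in MrgprA3+ libraries of control mice and at most 0.112 FPKM in MrgprA3- ones. Of 20 tested genes of filament transport, phosphorylation and turnover, 2 were higher in control mice (among them the kinase gene Mapk3, 0.47) and 1 lower. The lower gene was the kinesin gene Kif5a, which carries neurofilaments (-0.47, limma adjusted p = 0.00657). In ACD mice 3 of the 20 were higher and 2 lower. Among all genes tested 8.64% were higher and 18.4% lower in control mice, and 6.84% and 15.2% in ACD mice. For the 20 genes the count higher in control mice was 5 under median-ratio scaling and 4 under quantile normalization, with 1 lower under each.

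Microtubule genes moved in both directions. Of 21 tubulin, stathmin and microtubule-associated genes, all tested, 11 were higher in MrgprA3+ neurons of control mice, 3 lower and 7 did not pass, with a median difference of 0.24. In ACD mice 6 were higher and 5 lower, with a median of 0.17, against 6.84% and 15.2% of all genes tested (8.64% and 18.4% in control mice). The largest were Map2, a dendritic microtubule protein gene that was lower (1.54 ± 1.17 against 5.26 ± 0.849 FPKM, -1.43), and the higher genes Tubb2b (0.65), Dpysl3 (0.61) and Stmn1 (0.56). Under median-ratio scaling 12 of the 21 were higher and 2 lower in control mice, and under quantile normalization 5 and 3, with a median of 0.06. In ACD mice the counts were 10 and 3 under the former and 3 and 5 under the latter, so the counts of the list depend on the scaling. Median-ratio and quantile rescaling moved the median of all genes in control mice from -0.14 to -0.04 and 0.04, and the split of all genes called from 1037 higher and 2204 lower to 1431 and 1728 and to 1533 and 1529. For ACD mice the split went from 821 and 1826 to 1177 and 1479 and to 1190 and 1296. Under both rescalings the 9 members other than Nefl kept their direction in both treatments, and of the 24 other large-neuron markers 20 and 18 were lower in control and 16 and 12 in ACD mice.

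Calcium-binding and vesicle genes related to Pvalb, Calb1 and Cadps2 were mixed. Of 21 tested calcium sensors and buffers 6 were higher, 7 lower and 8 did not pass in control mice, with Hpca (-2.57), S100b (-2.52), Necab3 (-2.47) and Vsnl1 (-2.40) the largest, all lower. Of the 7 lower, 3 (Hpcal4, Vsnl1 and Scgn) passed the filter on low values only through MrgprA3- libraries, so their direction was largely set by the filter. In that comparison 18.4% of all genes tested were lower and 8.64% higher. S100b also stands in the Schwann cell list. Hpcal1 (1.32) and the calmodulin gene Calm2 (0.65) were higher. The buffer genes Calb2 and Ocm were at or near 0 in all groups. Of 19 tested genes of dense core vesicle priming and content, 2 were higher, 6 lower and 11 did not pass, led by the vesicle gene Sytl2 (1.94 ± 1.56 against 36.4 ± 3.25 FPKM, -3.86), and with the granin genes Scg2 (-1.42) and Chgb (-1.33) among the other lower genes. Of 11 tested genes of axon injury, among them neuropeptide genes, 5 were lower and 1 higher (Gap43, 0.70), with Nts (-3.44), Gal (-3.08), Atf3 (-1.65) and Cckbr (-1.65) the largest. Cckbr passed the filter on low values only through MrgprA3- libraries.

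**Figure D4:**
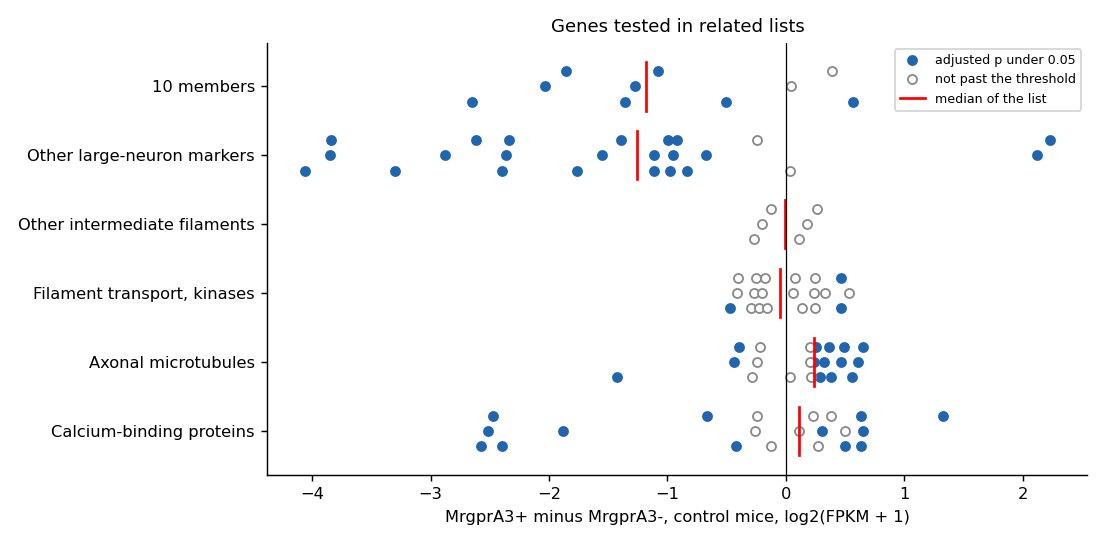
Difference MrgprA3+ minus MrgprA3- in control mice, log2(FPKM + 1), of every tested gene in 6 lists, 1 point per gene, filled where the adjusted p was under 0.05, with a red line at the median of the list. The 10 members and the other large-neuron markers centre on -1.18 and -1.25, the other filament and transport lists on about 0, and the axonal microtubule list on 0.24. Some members, other large-neuron markers and calcium-binding genes passed the filter on low values only through MrgprA3- libraries.

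None of the 10 genes passed the test for dermatitis in either population. In MrgprA3+ neurons 0 of 10 passed by limma, where 0 of 11996 genes passed (0%) and 665 had an unadjusted p under 0.05. In MrgprA3- neurons 0 of 10 passed, against 0.108% of all genes (13 genes, with 1012 at an unadjusted p under 0.05). The MrgprA3+ control libraries enter both this comparison and the population comparison, so the values are not independent of those above. Spp1 had the largest difference in MrgprA3+ neurons, from 0.576 ± 0.994 FPKM (n = 5) in control to 3.46 ± 3.51 (n = 4) in ACD mice, which is 1.32 (SE 0.51; unadjusted p = 0.0197, adjusted p = 0.875 by limma; exact permutation p = 0.0635; 95% interval 0.24 to 2.40). Of the 4 ACD libraries 3 were at 2.26 FPKM or above and 4 of the 5 control libraries at or below 0.20, so the groups overlap through the control library at 2.35 and the ACD library at 0.30. The value was 0.85 without ACD replicate 2 and 1.80 without ACD replicate 5. Ldhb stood at 90.9 ± 22.5 and 127 ± 20.3 FPKM (0.50, SE 0.18, unadjusted p = 0.0145, adjusted p = 0.875 by limma; 95% interval 0.11 to 0.89), and Nefl at 4430 and 5256 FPKM (0.25, SE 0.10, unadjusted p = 0.0276, adjusted p = 0.875 by limma). For Nefh the difference was 0.45 with an interval of -0.01 to 0.90.

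In MrgprA3- neurons the differences between ACD and control mice lay between -0.34 for Ina and 0.48 for Spp1. Ina, at 20.3 ± 4.57 and 15.6 ± 1.65 FPKM (n = 5 each), had the smallest unadjusted p of the 10 (0.0272, adjusted p = 0.528 by limma; 95% interval -0.63 to -0.04). Nefh stood at 79.4 and 80.9 FPKM and differed by 0.003 with an interval of -0.60 to 0.61, which leaves room for a change of either sign. The test of whether dermatitis acted unlike in the populations found 0 of 10 genes and 0% of all genes by limma, with 553 genes at an unadjusted p under 0.05. Nefm had the smallest unadjusted p of the 10 (0.0442, adjusted p = 0.994; difference of the population contrast, ACD minus control, -0.45, SE 0.21). None of the related lists held a gene that passed in any of these 3 comparisons.

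**Figure D5:**
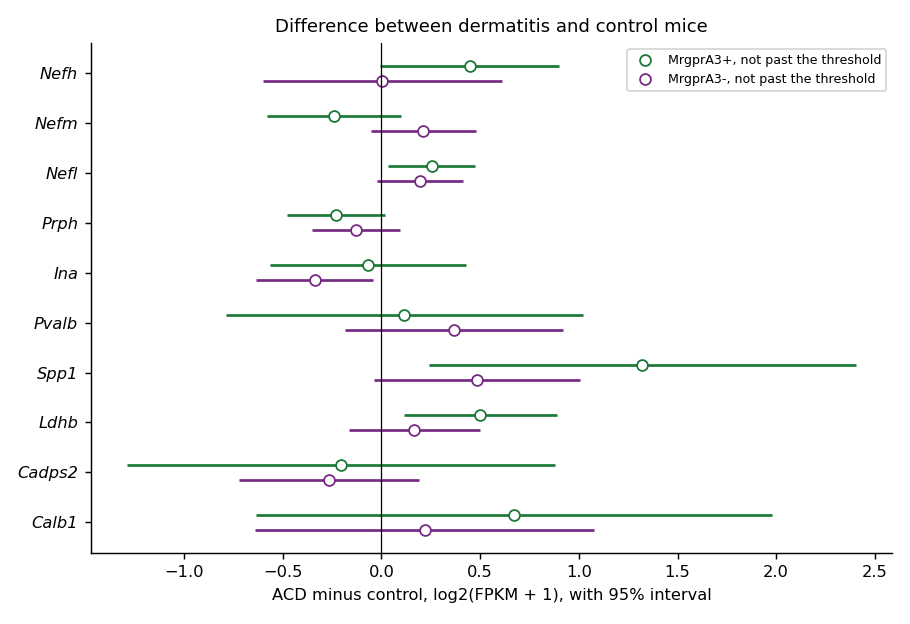
Difference ACD minus control of each gene on the log2(FPKM + 1) scale with its 95% interval, in MrgprA3+ (green) and MrgprA3- (purple) neurons; all points are open because none passed the test across all genes. The widest intervals belong to Spp1, Cadps2 and Calb1 in MrgprA3+ neurons, and that of Spp1 runs from 0.24 to 2.40.

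The genes most like each member over the 19 libraries were ranked by Pearson r of log2(FPKM + 1) among the 7203 tested genes other than the members with a mean of at least 5 FPKM. These r values are descriptions without a test, since the libraries fall into 2 populations and any gene that separates them scores high. Among the 3 genes most like Nefh were the sodium pump gene Atp1b1 (r = 0.932) and the lipid flippase gene Atp11a (0.924). Pvalb was most like the serotonin receptor gene Htr1d (0.945), Clstn3 (0.942) and the potassium channel partner Kcnip1 (0.929). Ldhb was most like the protocadherin gene Pcdh9 (0.943), Tagln3 (0.935) and Adgrg2 (0.934), and Spp1 most like D930028M14Rik (0.930), Gprc5c (0.923) and the potassium channel gene Kcnk1 (0.922). Prph was most like Diablo (0.959), Capns1 (0.958) and Aplp1 (0.950), and Ina most like Abhd12 (0.927), Gnb2 (0.907) and Rtn2 (0.906). Nefm was most like the overlapping A230070E04Rik (0.984), then Galnt18 (0.897) and Kirrel3 (0.884). Cadps2 had Ttc3 (0.846), 6430548M08Rik (0.821) and Kcnc4 (0.818), and Calb1 had Hip1 (0.888), Zmynd11 (0.852) and Uqcrc2 (0.852). For Nefl the best matches were weaker, at 0.749 for Ube2v1, 0.734 for 6430562O15Rik and 0.729 for Ypel4. Nefl and Nefm are neighbours on chromosome 14 in the GRCm38.p6 table, with 1 pseudogene listed between them.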

How the data were processed

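Both sorted populations of control and ACD mice were sequenced as polyadenylated libraries from RNA isolated with RNeasy Micro kits, per the labels' protocols. Reads were aligned with Bowtie2 to mm9, per the submitters' processing notes. No source used here gives its version, the annotation, the counting program or strandedness. Values are the authors' FPKM, in a deposited table that lists 18666 genes to 2 decimals. No coordinates of the files were used, since the reference at hand is GRCm38.

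The genes, lists and tests were chosen with earlier results of these data known. All genes named are the 10 members, up to 4 genes of each list with the largest difference among those past the threshold in control mice, defining markers, partner genes, and the 3 genes most like each member; Etv1, Gfra1, Gap43, Calm2 and Hpcal1, and the filament genes at 0 or singled out in ACD mice, were named after their values were seen. Some genes that this rule names are not reported here. The filter kept 11996 genes that reached 1 FPKM in 4 or more of 19 libraries. Group means of log2(FPKM + 1) were fitted with limma 3.58.1 in R 4.3.3 (eBayes, trended prior, robust; statmod 1.5.0), two-sided, with Benjamini-Hochberg adjustment over all genes kept. Population differences and the interaction used all 19 libraries, dermatitis differences only the compared groups. The spread between libraries differs between the groups, and in simulated data with that unequal spread the shared fit made false calls for the population differences at several times the nominal rate, so the adjusted p-values of population differences are on the whole too small and calls near the threshold are not firm; group weights and fits of the compared groups alone were run as alternatives. Errors of FPKM are SD, errors of differences SE. Exact permutation tests of single genes are two-sided and shuffle libraries freely, so they do not use that each mouse gave both populations. Libraries are named by group and replicate; which mouse gave which library is not stated. Depth was estimated from 1080 genes of 300 to 900 bp, with 72.87% to 83.18% of low values within 0.2 of a whole step. Each depth was the value with the highest such share in a search from 8 to 24 M, so the shares are raised by the search. At a fixed depth chance gives about 40%. Lengths came from GRCm38, so depths and fragment numbers are approximate and cover counting error only.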

Additional observations from a re-analysis of the deposited data

Results flagged for a closer look

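In 8 of 88 groups of 4 or 5 libraries tested, the highest or lowest library stood far from the others by Dixon's 95% criterion, of which chance gives about 1 in 20 groups. For Calb1 it was control MrgprA3+ replicate 3 at 5.78 FPKM, and for Spp1 the same library at 2.35 FPKM. For Pvalb it was control MrgprA3+ replicate 4 at 3.16 FPKM. For Nefm it was ACD MrgprA3+ replicate 5 at 382.32 FPKM, which was also far for Nefm over Prph (1.05666). For Cadps2 it was ACD MrgprA3- replicate 1, low at 2.59 FPKM. ACD MrgprA3- replicate 4 stood apart for Nefl over Nefm (11.3408) and for the share of Nefm in the triplet (7.97818%), which rest on the same pair of genes.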

How the results depend on the processing

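Results were recomputed without a filter, with one at 5 FPKM, a pseudocount of 0.1, median-ratio scaling, quantile normalization, group weights, a replicate block, other libraries in the fit, each library left out, and, added after seeing the data, leaving out both MrgprA3+ libraries of high Calb1. Under these, 5 to 7 of the 10 genes were lower and 1 was higher in control mice, and 4 to 7 were lower and 1 to 2 higher in ACD mice, the single higher gene being the value without ACD MrgprA3+ replicate 4. No member passed for dermatitis or the interaction. Nefl in control mice turned from 0.04 to -0.217 under quantile normalization; the cause was not tested. With a pseudocount of 0.1 the control differences of Spp1, Pvalb and Calb1 were -4.45, -3.85 and -3.67, larger by construction. Over all genes, 42 passed for dermatitis in MrgprA3+ neurons with all 19 libraries in the fit (25 higher, 17 lower) against 0; in MrgprA3- neurons 0 passed with no filter or all 19 libraries and 2 with the block, against 13. Same-numbered libraries of both populations correlated in their deviations from the group means at -0.056 to 0.193, and the labels do not tie a number to a mouse, so the numbers were not taken to pair the libraries. With the replicate block 6 members were lower and 1 higher in control mice and 6 and 2 in ACD mice; Cadps2 lost its control call, Calb1 gained one in ACD mice, and no other member's call changed. Depth limits Pvalb and Calb1 in MrgprA3+ libraries, where some libraries held an estimated 0 to 3 fragments. It may limit Spp1 there too, which fell to 0.05 FPKM in control mice, but no fragment number was estimated for Spp1.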
